A study of Drosophila melanogaster with 12 samples.

Results

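Heat shock proteins and co-chaperones of the fly head are described here across 1 day in a light/dark cycle and the following day in darkness. The genes were Hsp110, stv, DnaJ-1, CCT2, Hsp83, Hsp23, Hsp26 and Hsp27, and a gene was taken where the platform annotation gave a probe set its symbol and no other. This held for 6 of the 8 genes, with 8 of the 13966 probe sets tested, and over the whole annotation 10844 genes had such a probe set. Hsp83 and Hsp23 had no probe set with a single symbol and were not analysed here. stv and CCT2 had a pair of probe sets each, and the one with the higher mean over the arrays is called leading and the other second.

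All flies were adult y w; tim01 flies, which carry the tim01 allele of timeless, a clock gene whose loss stops the molecular clock, in a yellow white background, and no array of flies with a working timeless gene was used here. Oligonucleotide arrays measured total RNA from pools of about 100 to 200 heads, 1 array per time point and 12 arrays in all. After 3 days with 12 h of light per day, flies were taken every 4 h through a further such day (LD, hours ZT2 to ZT22 after lights-on) and then through a day in constant darkness (DD, hours CT2 to CT22 on the same clock). Hours ZT2, ZT6 and ZT10 form the LD light phase and ZT14, ZT18 and ZT22 the LD dark phase, and in DD the hours CT2, CT6 and CT10 form the subjective day and CT14, CT18 and CT22 the subjective night, each with 3 arrays. Within a group every array is another hour, so each SD and p-value carries the spread between those hours together with any technical difference between arrays. Where groups are joined for a comparison, the SD also carries the differences between them. The p-value of such a comparison rests on the spread within groups only. The LD day came before the DD day, so the lighting regime and the order of sampling cannot be told apart. In whole heads, fewer cells of a type and less RNA per cell cannot be told apart either.

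Molecular chaperones hold unfolded proteins in a state from which they can fold. Small heat shock proteins such as Hsp26 and Hsp27 bind unfolding proteins without using ATP. J-domain proteins such as DnaJ-1 deliver clients to Hsp70 and start its ATP hydrolysis, and exchange factors such as Hsp110 and the BAG-domain protein starvin (stv) release the ADP so that the client can leave. The CCT ring, of which CCT2 is a subunit, folds actin, tubulin and other proteins inside a closed chamber. Heat shock factor (Hsf) drives many of these genes under stress, while constitutive members such as Hsc70-4 are expressed without it. All values are deposited log2 RMA values, and a difference of 1 between groups is a doubling.

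The arrays were alike in scale, with medians between 4.1 and 4.14 and Pearson correlations between arrays from 0.988 to 0.997. Photoreceptor markers were bright (5 of 8 listed genes measured, mean levels from 8.53 to 11.94), while of the 3 of 5 neuron markers measured 1 lay below the median of all values. Transcripts of the gut (9 of 12 listed) and of the male reproductive tract (12 of 14) were high at ZT2, ZT18 and CT2. Their joint level there was 0.83, 0.24 and 0.52 above their own mean over the arrays, against -0.23 to -0.06 on the other 9 arrays. Results are therefore also given without those 3 arrays where this changes a call.

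The LD light phase was first set against the DD subjective day, which covers equal clock hours in darkness. By the leading probe sets, 2 of the 6 genes rose, the exchange factor gene Hsp110 by 0.61 ± 0.11 (SE; 1.53-fold) and the chaperonin subunit gene CCT2 by 0.52 ± 0.10 (1.43-fold). Over all probe sets tested, 0.15% were called higher in this comparison (limma, Benjamini-Hochberg adjusted p under 0.05). The second probe set of stv was also called higher, by 0.57 ± 0.10 (1.49-fold), while its leading one was not. The genes were listed with the higher LD values of Hsp110, stv and CCT2 already known, so their share of calls is a description and no independent evidence.

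Hsp110 belongs to the Hsp70 superfamily and exchanges nucleotide on Hsp70. Its probe set 154626_at gave 4.33, 4.31 and 3.98 at ZT2, ZT6 and ZT10 in the LD light phase, against 3.63, 3.76 and 3.39 at CT2, CT6 and CT10 in the DD subjective day. The groups did not overlap, and LD was the higher at each of the 3 hours. The means were 4.21 ± 0.20 in the LD light phase and 3.59 ± 0.18 in the DD subjective day (SD, n = 3 each; 95% interval of the difference from 0.37 to 0.86, adjusted p = 0.0484). The probe set is dim: its mean of 3.92 lies below the median of all values, 4.12. Its SD over the 12 arrays, 0.27, is larger than that of 98.5% of the probe sets tested. In the remaining hours Hsp110 read 3.85, 4.15 and 3.90 in the LD dark phase and 3.92, 3.78 and 4.0 in the DD subjective night, between the groups above except at ZT18 and CT22, which exceeded ZT10.

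The BAG-domain gene stv gave different answers on its probe sets. Its second probe set (151834_at) read 6.06, 5.92 and 5.75 in the LD light phase, against 5.51, 5.35 and 5.16 in the DD subjective day. All 3 light values exceeded all 3 in darkness, with means of 5.91 ± 0.15 in the LD light phase and 5.34 ± 0.17 in the DD subjective day (SD, n = 3 each; adjusted p = 0.0349). Its leading probe set (148716_at) read 6.12, 5.92 and 6.11 in the LD light phase, against 6.15, 5.89 and 5.97 in the DD subjective day. These overlapped, the difference was 0.05 with a 95% interval from -0.14 to 0.24 (adjusted p = 0.882), and CT2 was the highest of the 12 values. Between the 2 probe sets of stv the correlation over the arrays was 0.28, and their SDs were 0.26 for the second and 0.11 for the leading one. The files do not say which transcripts each of them reads, and the difference between them was not tested.

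CCT2 encodes a subunit of the ring that stacks into the chaperonin. Its leading probe set, 151740_at, read 7.99, 7.99 and 7.70 at ZT2, ZT6 and ZT10 in the LD light phase, against 7.44, 7.49 and 7.18 in the DD subjective day. The groups did not overlap (7.89 ± 0.17 in the LD light phase and 7.37 ± 0.17 in the DD subjective day, SD, n = 3 each; adjusted p = 0.0499). The second probe set, 142977_at, was higher in LD at each of the 3 hours but the groups overlapped, with 5.5, 5.40 and 5.53 in the LD light phase and 5.43, 5.22 and 5.34 in the DD subjective day (difference 0.14, adjusted p = 0.598). The correlation between the 2 probe sets was 0.39, and here too the difference between them was not tested.

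The other members did not pass in this comparison. DnaJ-1, the J-domain gene, differed by 0.15 ± 0.07 (adjusted p = 0.470), the small heat shock gene Hsp26 by 0.19 ± 0.10 (adjusted p = 0.455) and Hsp27 by -0.03 ± 0.07 (adjusted p = 0.894). Of the 8 probe sets, 3 had groups without overlap with the LD light phase higher, where 6.39% of all probe sets did. The median change of the 6 leading probe sets was 0.17, against -0.02 over all probe sets.

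**Figure D1:**
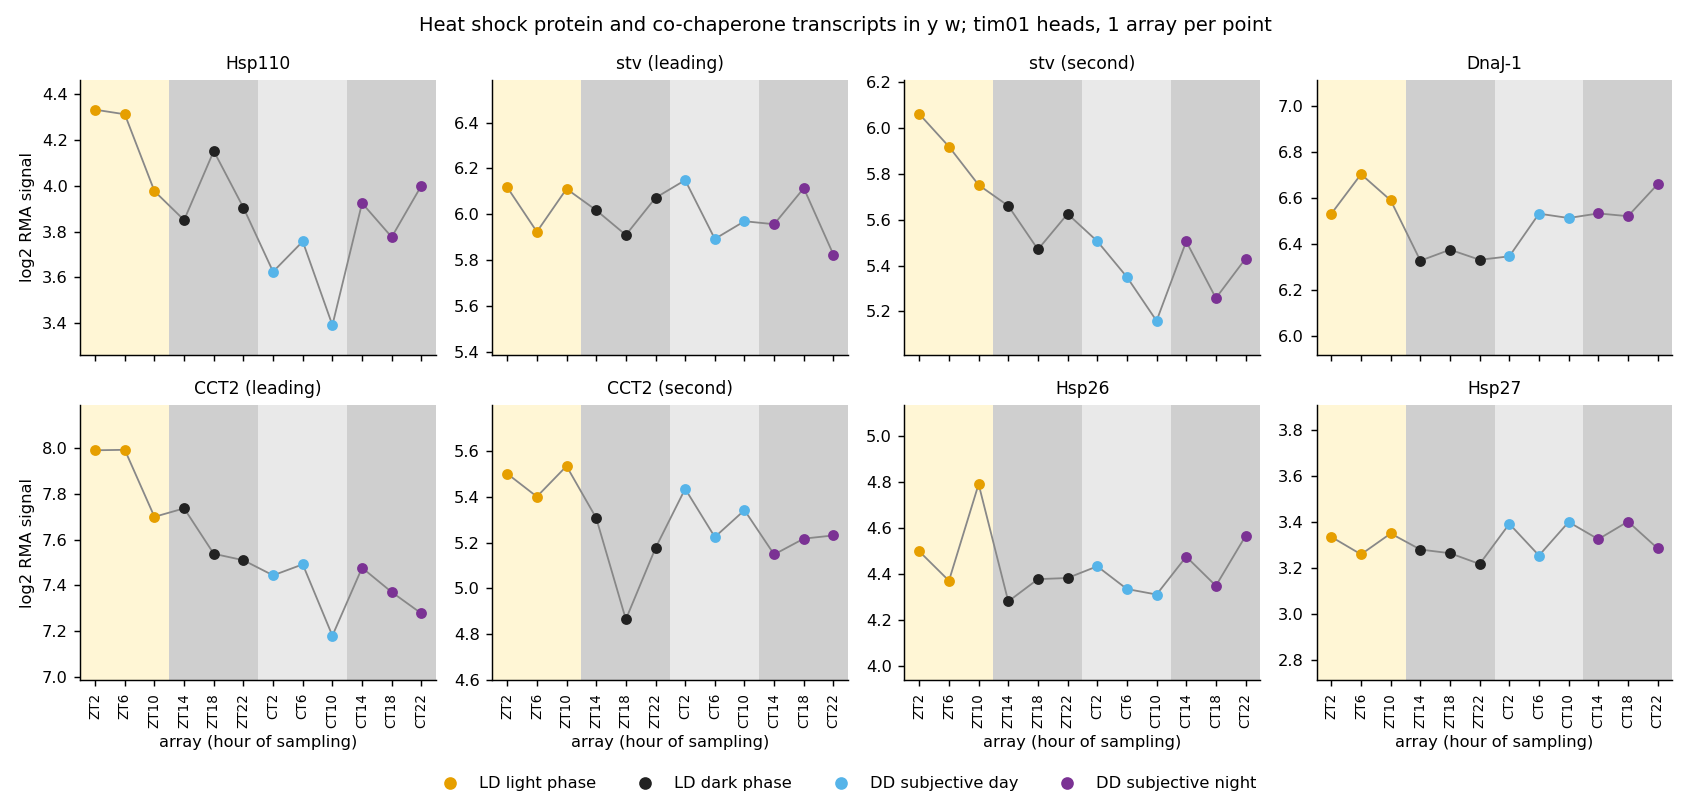
Log2 RMA signal of the 8 probe sets (vertical axes, each spanning the same number of log2 units) at the 12 hours from ZT2 to CT22, 1 array per point, with the light phase shaded yellow, hours of darkness dark grey and the subjective day light grey. Hsp110, stv (second) and CCT2 (leading) sit highest at ZT2 or ZT6 and lowest at CT10, DnaJ-1 is low from ZT14 to CT2, and stv (leading) and Hsp27 stay within narrow bands.

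The calls of Hsp110 and CCT2 lie close to the threshold of 0.05. The call of Hsp110 was lost without any 1 of ZT2, ZT6, ZT22, CT2, CT10, CT18 or CT22 (adjusted p from 0.0571 to 0.254). That of CCT2 was lost without any 1 of ZT2, ZT6, ZT18, ZT22, CT2, CT10, CT14, CT18 or CT22 (0.0525 to 0.275). That of stv (second) was lost without ZT6, CT10 or CT22 (0.0622 to 0.214). The differences themselves stayed between 0.52 and 0.73 for Hsp110, between 0.43 and 0.62 for CCT2 and between 0.48 and 0.66 for stv (second). Without ZT2, ZT18 and CT2 together, stv (second) was 0.58 higher and still called (adjusted p = 0.0322), while Hsp110 (0.57, adjusted p = 0.112) and CCT2 (0.51, adjusted p = 0.137) were not. With the joint gut and male tract level as a covariate on all arrays, each call was kept. The differences were then 0.61 for Hsp110 (adjusted p = 0.012), 0.56 for stv (second) (0.00816) and 0.52 for CCT2 (0.0207).

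**Figure D2:**
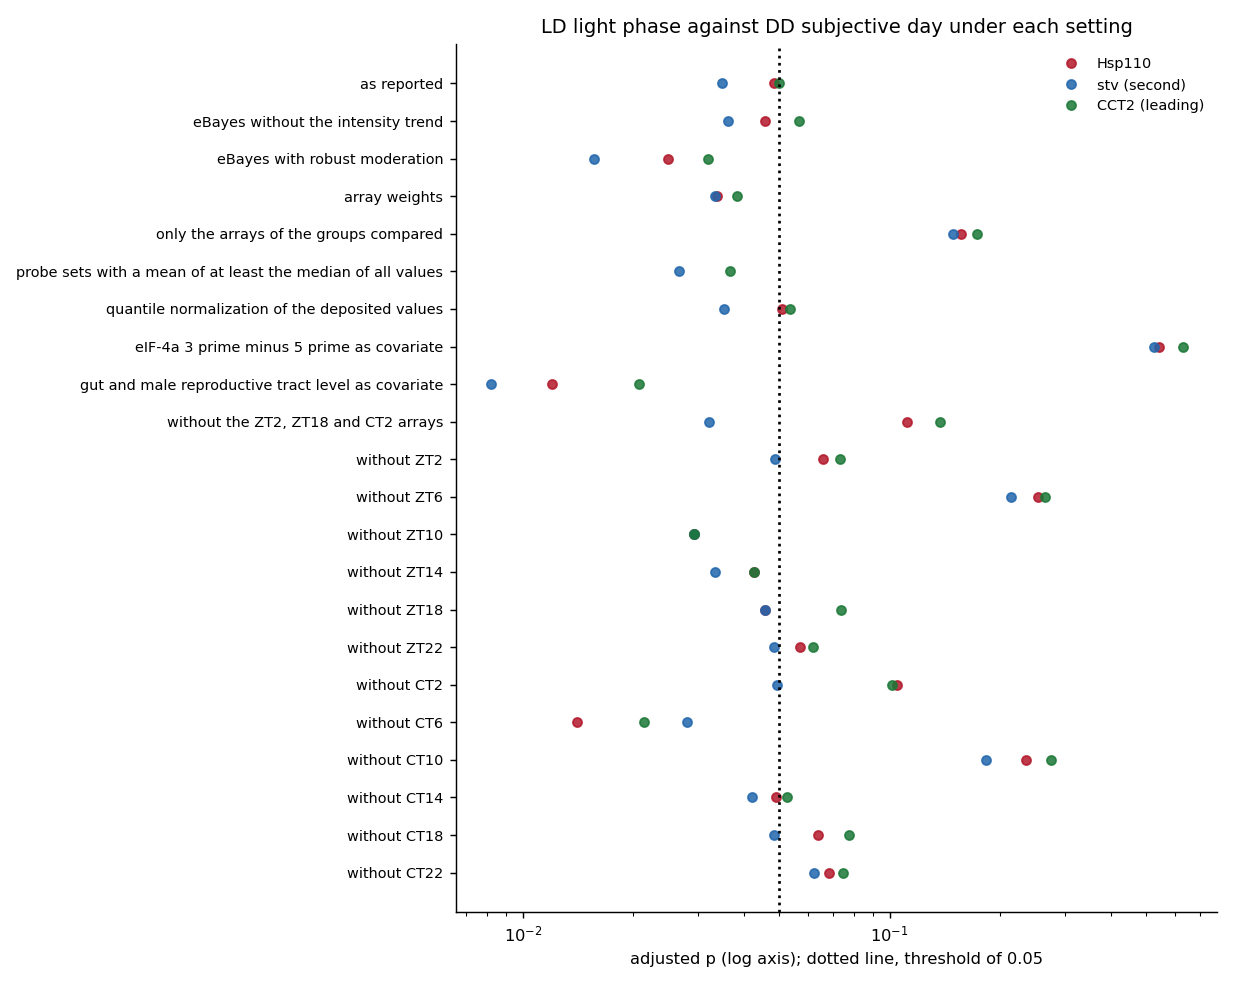
Adjusted p (horizontal log axis) of the LD light phase against the DD subjective day for 3 probe sets, 1 row per setting drawn, with the threshold of 0.05 dotted. Clock hour as a replicate block is not drawn (adjusted p = 0.00801 for Hsp110, 0.00161 for stv (second) and 0.00334 for CCT2). Nor is 1 probe set per gene (0.036 for Hsp110 and 0.041 for CCT2). Most points of Hsp110 and CCT2 lie near the line on either side, and all 3 probe sets move to adjusted p above 0.5 when the eIF-4a measure is added.

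A measure of RNA quality moved with this comparison. The control probe sets of eIF-4a, placed at the 3' and 5' ends of the transcript, differed by 3.32, 2.89 and 3.05 log2 units at ZT2, ZT6 and ZT10 in the LD light phase, against 2.81, 2.74 and 2.56 at CT2, CT6 and CT10 in the DD subjective day. These did not overlap, nor did those of the actin control (2.65 to 3.0 in the LD light phase and 2.18 to 2.62 in the DD subjective day), while those of GAPDH did (2.28 to 2.73 in the LD light phase and 2.13 to 2.33 in the DD subjective day). Over the 12 arrays the eIF-4a measure had a Pearson correlation of 0.66 with Hsp110 (Spearman 0.58, and Pearson 0.42 without CT10 and ZT18), 0.61 with stv (second) (0.58 and 0.65) and 0.60 with CCT2 (leading) (0.65 and 0.58), and of -0.40 with DnaJ-1 (-0.31 and -0.36). These are descriptions of arrays that share the order of the days. With the measure as a covariate the differences were 0.47 for Hsp110 (adjusted p = 0.542), 0.41 for stv (second) (0.524) and 0.36 for CCT2 (0.630), and no call was left. The measure did not overlap between these groups, so this fit can only poorly tell it apart from the lighting regime. Hsc70-4 lost its call in the same fit (adjusted p from 0.0349 to 0.307) although its difference went from 0.49 to 0.51. A lost call here therefore does not show how much of a difference goes with RNA quality. The LD dark phase had eIF-4a values as high as the light phase, from 3.15 to 3.32, beside Hsp110 values of 3.85 to 4.15, stv (second) values of 5.47 to 5.66 and CCT2 (leading) values of 7.51 to 7.74. CCT2 (leading), like the eIF-4a measure, was higher there than in the DD subjective night without overlap, and stv (second) was higher at 3 of 3 hours with overlap. The part of RNA quality in the result was not tested beyond this covariate.

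**Figure D3:**
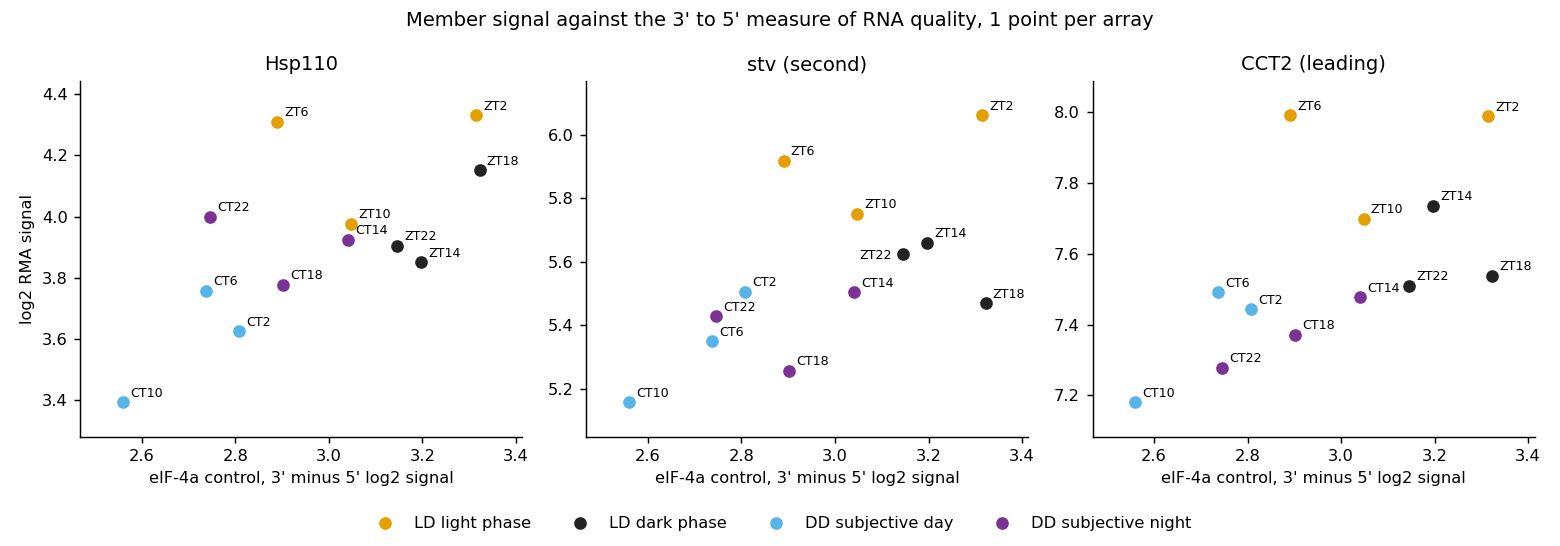
Log2 RMA signal (vertical axes) of Hsp110, stv (second) and CCT2 (leading) against the 3' minus 5' log2 signal of the eIF-4a control (horizontal axis), 1 point per array coloured by group. Arrays of the LD light phase do not overlap those of the DD subjective day on either axis, and the LD dark phase combines 3' minus 5' values of 3.15 to 3.32 with lower signals than ZT2 and ZT6.

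Levels of other cell types differed less clearly between these groups. The photoreceptor list ran from 0.04 to 0.24 above its mean in the LD light phase, against -0.05 to 0.06 in the DD subjective day. The glia list (3 of 4 genes) ran from 0.03 to 0.13 in the LD light phase and from -0.29 to 0.12 in the DD subjective day, the fat body list (7 of 8) from -0.26 to 0.07 in the LD light phase and from -0.20 to 0.01 in the DD subjective day. The muscle list (3 of 5) ran from -0.30 to 0.15 in the LD light phase and from 0.01 to 0.09 in the DD subjective day. The neuron list (3 of 5) ran from -0.09 to 0.05 in the LD light phase and from -0.06 to 0.06 in the DD subjective day. All these ranges of list means overlapped. Of the single genes, trpl was higher in the LD light phase without overlap (9.75, 10.06 and 10.32, against 9.51, 9.44 and 9.44). The glia gene repo was so by a narrow margin (lowest 5.175, against a highest of 5.174), while the glia gene moody was lower (4.70 to 4.76, against 4.82 to 4.88). The other genes measured in these lists overlapped. The part of these cell types in the result was not tested.

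Set against all 9 arrays in darkness, the LD light phase gave 1 call among the 6 leading probe sets and 2 among the 8, where 0.53% of all probe sets were called higher. CCT2 rose by 0.45 ± 0.08 (7.89 ± 0.17, n = 3, in light and 7.45 ± 0.16, n = 9, in darkness; adjusted p = 0.0219), although ZT14 in darkness, at 7.74, exceeded ZT10 in light. stv (second) rose by 0.47 ± 0.08 (5.91 ± 0.15 in light and 5.44 ± 0.16 in darkness; adjusted p = 0.0172), and its lowest value in light, 5.75 at ZT10, exceeded its highest in darkness, 5.66 at ZT14. Such a lack of overlap was found for 1.31% of all probe sets. Hsp110 (0.39 ± 0.09, adjusted p = 0.0675), DnaJ-1 (0.15 ± 0.06, 0.359) and Hsp26 (0.16 ± 0.08, 0.446) did not pass. The call of CCT2 was lost without ZT2, ZT6 or CT18 (adjusted p from 0.0517 to 0.218), and without ZT2, ZT18 and CT2 together (0.0915). That of stv (second) was lost without ZT6 (adjusted p = 0.135) and kept without those 3 arrays (0.0383). With the gut and male tract level as a covariate both calls were kept (adjusted p = 0.0133 for CCT2 and 0.0096 for stv (second)). With the eIF-4a measure as a covariate neither passed, at 0.39 for CCT2 (adjusted p = 0.0707) and 0.41 for stv (second) (0.0547). This comparison shares the arrays of both groups with the one above.

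Over all 6 hours, LD exceeded DD for the same probe sets, but 0 of the 6 genes passed, where 0.0215% of all probe sets were called. The leading probe set of CCT2 averaged 7.74 ± 0.21 in LD and 7.37 ± 0.12 in DD (SD, n = 6 each), a difference of 0.37 ± 0.07 (adjusted p = 0.0713). It was higher in LD at 6 of 6 hours, and its lowest LD value, 7.51 at ZT22, exceeded its highest DD value, 7.49 at CT6, a separation found for 0.265% of all probe sets. stv (second) was also higher in LD at 6 of 6 hours (0.38 ± 0.07, adjusted p = 0.0649), but its groups overlapped at ZT18 (5.47). Hsp110 was higher in LD at 4 of 6 hours (0.34 ± 0.08, adjusted p = 0.114). These p-values do not match the arrays by hour. With clock hour as a replicate block in limma, adjusted p was 0.00378 for CCT2, 0.00343 for stv (second) and 0.0278 for Hsp110. With the eIF-4a measure as a covariate the differences were 0.22 for CCT2 (adjusted p = 0.952), 0.23 for stv (second) (0.942) and 0.21 for Hsp110 (0.963). Without ZT2, ZT18 and CT2, stv (second) passed (0.41, adjusted p = 0.0269). At an unadjusted p under 0.05, 2 of the 6 genes and 1548 of all probe sets passed. DnaJ-1 (-0.04), Hsp26 (0.04), Hsp27 (-0.06), stv (leading) (0.04) and CCT2 (second) (0.03) all had 95% intervals that included 0 and lay between -0.17 and 0.18.

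**Figure D4:**
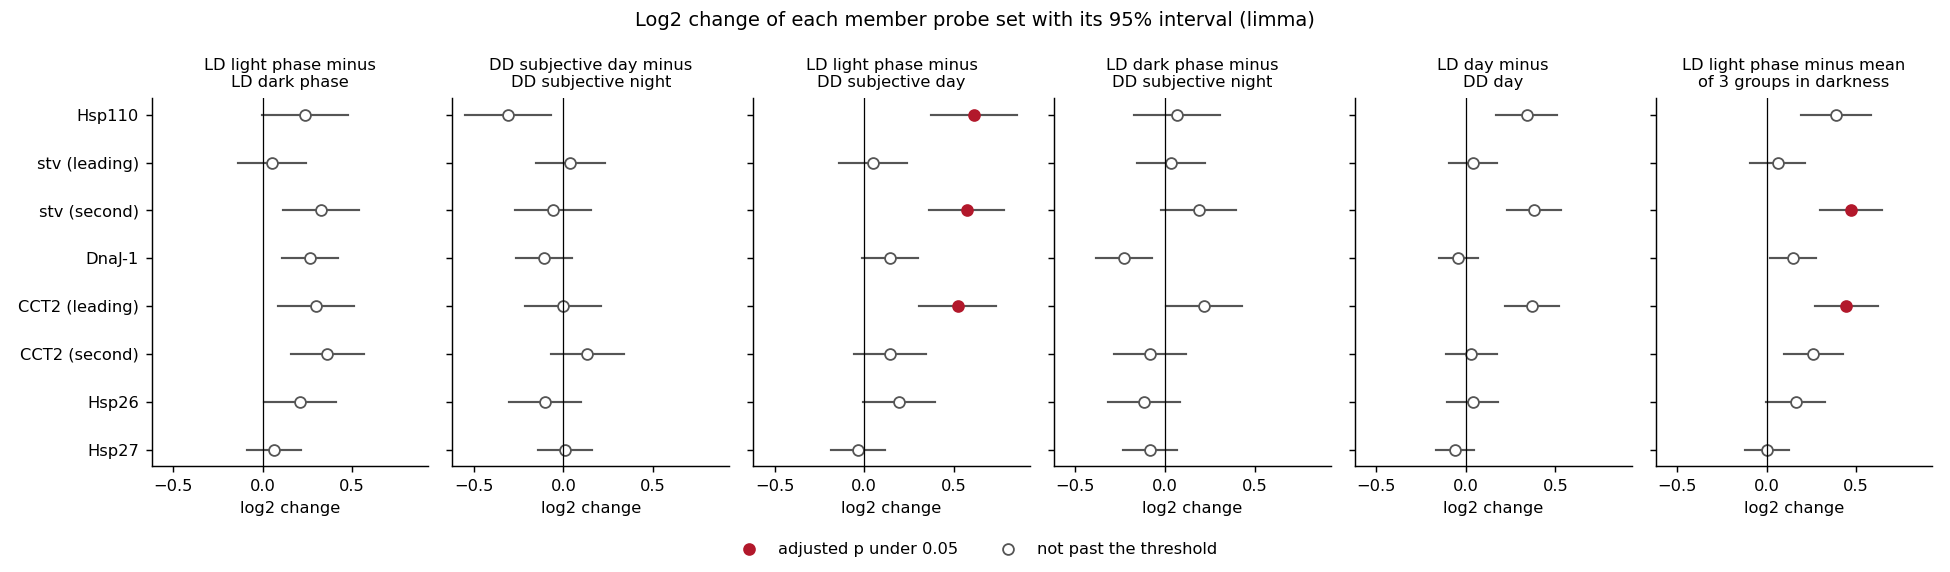
Log2 change (horizontal axes) of the 8 probe sets in 6 comparisons, with 95% intervals as lines and filled points for adjusted p under 0.05 (limma). Filled points occur for 3 probe sets in the LD light phase against the DD subjective day and for 2 in light against all darkness, and DnaJ-1 lies right of 0 within LD but left of 0 in the LD dark phase against the DD subjective night.

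Within LD, the light phase was compared with the dark phase. None of the 6 genes passed, where 0.129% of all probe sets were called, and at an unadjusted p under 0.05 there were 3 of the 6 genes and 874 of all probe sets. All 6 leading probe sets were higher in the light phase, with a median of 0.22, against -0.01 over all probe sets, of which 47.2% were higher. The photoreceptor list moved with this comparison, from 0.04 to 0.24 in the light phase and from -0.15 to -0.0044 in the dark phase without overlap. Of its genes only trpl was without overlap, at 9.75, 10.06 and 10.32 in the light phase, against 9.55, 9.14 and 9.47. The genes trp, inaD, Arr1 and Arr2 each overlapped. The part of the list in the result was not tested. DnaJ-1 read 6.53, 6.71 and 6.59 in the light phase, against 6.33, 6.38 and 6.33 in the dark phase. Its groups did not overlap, and the means were 6.61 ± 0.09 in light and 6.35 ± 0.03 in the dark phase (SD, n = 3 each; difference 0.26 ± 0.07, adjusted p = 0.346). stv (second) (0.32 ± 0.10, adjusted p = 0.433) and CCT2 (second) (0.36 ± 0.10, 0.289) were also without overlap, so 3 of 8 probe sets were, where 5.62% of all probe sets were higher in this way. CCT2 (leading) (0.30 ± 0.10, 0.528), Hsp110 (0.24 ± 0.11, 0.814) and Hsp26 (0.21 ± 0.10, 0.792) overlapped. Hsp26 had its highest value of the series, 4.79, at ZT10, beside 4.50 and 4.37 at ZT2 and ZT6 and 4.28 to 4.38 in the dark phase.

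Between the DD subjective day and night, 0 of the 6 genes passed, where 0.0644% of all probe sets were called, and at an unadjusted p under 0.05 there were 1 of the 6 and 816 of all. That gene was Hsp110, with 3.63, 3.76 and 3.39 in the subjective day and 3.92, 3.78 and 4.0 in the subjective night. Its groups did not overlap, a difference of -0.31 ± 0.11 (adjusted p = 0.770), and 4.82% of all probe sets were lower without overlap. The GAPDH 3' minus 5' measure (2.131 to 2.329 by subjective day and 2.334 to 2.398 by subjective night) and the fat body list (-0.20 to 0.01 by subjective day and 0.05 to 0.10 by subjective night) were lower by day without overlap. The gut list (-0.11 to 0.64 by subjective day and -0.27 to -0.16 by subjective night) and the male reproductive tract list (-0.18 to 0.43 by subjective day and -0.20 to -0.19 by subjective night) were higher by day without overlap. The part of these in the result was not tested. DnaJ-1 (-0.11 ± 0.07, adjusted p = 0.870), Hsp26 (-0.10 ± 0.10, 0.902) and CCT2 (leading) (0.00 ± 0.10, 0.997) overlapped. The median of the 6 genes was -0.05, against 0.01 over all probe sets.

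The difference between these day and night contrasts, LD minus DD, did not pass for any of the 6 genes, and 0% of all probe sets were called. By the leading probe sets it was positive for all 6, with a median of 0.31, against -0.01 over all probe sets, of which 46% were positive. Hsp110 had the largest at 0.55 ± 0.16 (adjusted p = 0.882), followed among the leading probe sets by DnaJ-1 at 0.37 ± 0.10 (0.837), Hsp26 at 0.31 ± 0.13 (0.935) and CCT2 at 0.30 ± 0.14 (0.935). The probe sets of stv differed again, at 0.01 for the leading and 0.38 ± 0.14 (0.935) for the second. CCT2 (second) was at 0.23 ± 0.14 (0.935). At an unadjusted p under 0.05 there were 4 of the 6 genes, where 727 of all probe sets passed.

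Both the LD dark phase and the subjective night of DD were in darkness, at equal clock hours. None of the 6 genes passed, 0% of all probe sets were called, and 2 of the 6 and 680 of all probe sets had an unadjusted p under 0.05. DnaJ-1 was lower in the LD dark phase at 3 of 3 hours, with 6.33, 6.38 and 6.33, against 6.53, 6.52 and 6.66 in the DD subjective night. The groups did not overlap and differed by -0.23 ± 0.07 (adjusted p = 0.998). CCT2 (leading) was higher in the LD dark phase at 3 of 3 hours, with 7.74, 7.54 and 7.51, against 7.48, 7.37 and 7.28 (0.22 ± 0.10, adjusted p = 0.998), also without overlap. Hsp27 was lower in the LD dark phase without overlap as well (-0.08 ± 0.07). Of all probe sets, 5.66% were lower and 4.38% higher without overlap. The eIF-4a measure (3.15 to 3.32 in the LD dark phase and 2.75 to 3.04 in the DD subjective night), the muscle list (-0.10 to -0.05 in the LD dark phase and 0.08 to 0.20 in the DD subjective night) and the male reproductive tract list (-0.18 to 0.29 in the LD dark phase and -0.20 to -0.19 in the DD subjective night) did not overlap either. With the eIF-4a measure as a covariate the differences were -0.11 for DnaJ-1, 0.09 for CCT2 (leading) and -0.12 for Hsp27. As the measure did not overlap between these groups, this fit too can only poorly tell it apart from the lighting regime. The part of the marker lists was not tested. Hsp110 differed by 0.07 ± 0.11 here, beside 0.61 ± 0.11 in the hours of the light phase. The gap between these values equals its LD minus DD contrast above, which did not pass (0.55 ± 0.16, adjusted p = 0.882).

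A curve of 24 h period was fitted to each day. None of the 6 genes had a rhythm past the threshold in LD (0.107% of all probe sets), in DD (0.00716%) or in the difference between the days (0.00716%), with 2, 0 and 1 of them, and 800, 519 and 468 of all probe sets, at an unadjusted p under 0.05. The fitted LD amplitudes, from mean to peak, were 0.27 for CCT2 (second) (peak at 6.7 h, adjusted p = 0.452), 0.25 for stv (second) (4.8 h, 0.604), 0.23 for CCT2 (leading) (5.7 h, 0.799), 0.19 for DnaJ-1 (6.3 h, 0.734) and 0.19 for Hsp110 (3.4 h, 0.994). In DD the amplitude of Hsp110 was 0.18 (peak at 20 h, adjusted p = 0.9995), close to its LD value, and the other member probe sets lay between 0.02 and 0.09. The median of the leading probe sets was 0.15 in LD and 0.04 in DD, where that of all probe sets was 0.07 in each.

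Hsp27 varied least. Its probe set 153307_at ran from 3.22 at ZT22 to 3.40 at CT18, with an SD of 0.06 that was larger than that of only 4.93% of the probe sets, and it is dim, with values below the median of all values on all arrays. RMA compresses the changes of dim probe sets, and the 95% interval of its difference in the LD light phase over the DD subjective day ran from -0.18 to 0.12. Hsp26, at 4.28 to 4.79, had an SD of 0.14.

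Among the members, stv (second) and CCT2 (leading) were most alike across the 12 arrays, with a Pearson correlation of 0.93 (Spearman 0.87) and of 0.72 after the group means were removed. Hsp110 correlated at 0.80 with stv (second) (0.64 and 0.47) and at 0.78 with CCT2 (leading) (0.65 and 0.52). DnaJ-1 correlated at 0.15 with stv (second) (Spearman 0.13), 0.15 with CCT2 (leading) (0.09) and 0.34 with Hsp110 (0.50). Its correlation with stv (leading) was -0.40 over the arrays and -0.91 within groups. Hsp27 lay lower, at -0.31 with stv (second), -0.32 with CCT2 (leading) and -0.49 with Hsp110. All these probe sets share the arrays, so the values are descriptions.

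The genes with the most similar pattern were taken from 1024 probe sets with a mean of at least the median of all values and an SD of at least 0.15. For Hsp110 they were igl (Pearson 0.93, Spearman 0.84), the translation termination factor gene eRF3 (0.88, 0.75) and the receptor gene put (0.87, 0.84). For stv (second) they were TER94, which encodes the AAA ATPase that extracts ubiquitylated proteins (0.96, 0.99), the junction gene Gli (0.95, 0.92) and the chaperonin subunit gene CCT5 (0.94, 0.92). For CCT2 (leading) they were siz (0.96, 0.98), Gli (0.95, 0.94) and CG9636 (0.95, 0.90), and for DnaJ-1 rtp (0.89, 0.89), CG6067 (0.87, 0.82) and lost (0.81, 0.66). Without the 2 arrays farthest from the median of each member, these stayed at 0.72 to 0.97. For stv (leading) they were eag (0.75, 0.78), CG2127 and dpr10, for CCT2 (second) Tsf1 (0.83, 0.87), sr and CG4199, and for Hsp27 BG642163 (0.82, 0.85), tkv and sns. For Hsp26 the likeness rested on ZT10 and CT22: koi fell to 0.48 without them, against 0.71 with them, and sxe2 and CG9377 to 0.28 and 0.11.

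The other chaperone genes were counted in 10 lists by class, with 64 of 80 genes measured. In the LD light phase relative to the DD subjective day 1 of the 64 rose and 0 fell, where 0.15% of all probe sets were called higher. The median change of the 64 was 0.05, against -0.02 over all probe sets. The gene that rose stood alone among them. This gene was Hsc70-4, the constitutive cytosolic Hsp70, which read 9.13, 9.15 and 9.11 in the LD light phase, against 8.60, 8.83 and 8.5 in the DD subjective day. The groups did not overlap, and it rose by 0.49 ± 0.09 (adjusted p = 0.0349; lost without ZT6, ZT10, CT2, CT10 or CT22, without ZT2, ZT18 and CT2 together, at 0.112, and with the eIF-4a covariate, at 0.307, where the difference was 0.51). With the gut and male tract level as a covariate the call of Hsc70-4 was kept (0.49, adjusted p = 0.00955). Not passing were the mitochondrial Hsp70 gene Hsc70-5 (0.56 ± 0.11, adjusted p = 0.0545), Stip1, the adaptor between Hsp70 and Hsp90 (0.44 ± 0.10, 0.0784), and CCT1 (0.33 ± 0.08, 0.0966). The stress-induced Hsp70 gene Hsp68 (-0.09, adjusted p = 0.732), the ER-resident Hsc70-3 (0.08, 0.767) and Hsf itself (0.28, 0.284) did not pass either. Of the 7 other CCT subunits 0 passed, with CCT5 at 0.34, CCT7 at 0.25, CCT8 at 0.23, CCT6 at 0.12, CCT3 at 0.00 and CCT4 at -0.03, beside 0.52 for CCT2.

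In light against all darkness 3 of the 64 rose and 0 fell, where 0.53% of all probe sets were called higher. These were Hsc70-4 by 0.38 ± 0.07 (adjusted p = 0.0219), Stip1 by 0.38 ± 0.08 (0.042) and CCT5 by 0.32 ± 0.07 (0.0459). All 3 Hsc70-4 values in light exceeded all 9 in darkness, which ranged from 8.5 to 8.88, while Stip1 and CCT5 overlapped. The calls of Stip1 and CCT5 were each lost when any 1 of 9 arrays was left out, and that of Hsc70-4 without ZT6, ZT10 or CT18. Without ZT2, ZT18 and CT2 together all 3 calls were lost, at adjusted p = 0.0792 for Hsc70-4, 0.213 for Stip1 and 0.215 for CCT5. With the gut and male tract level as a covariate all 3 were kept, at 0.00925, 0.036 and 0.0458 in that order. With the eIF-4a covariate Hsc70-4 was still called (0.39, adjusted p = 0.048), while Stip1 (0.40, 0.0824) and CCT5 (0.30, 0.145) were not. CG1416 (0.42 ± 0.10, adjusted p = 0.0554), CCT1 (0.29 ± 0.07, 0.0552) and Hsc70-5 (0.39 ± 0.09, 0.0618) did not pass, nor did Hsf (0.25), Hsc70-3 (0.20) and Hsp68 (-0.08). The remaining CCT subunits lay between -0.07 for CCT4 and 0.18 for CCT7. In the other 5 group comparisons 0 of the 64 passed.

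**Figure D5:**
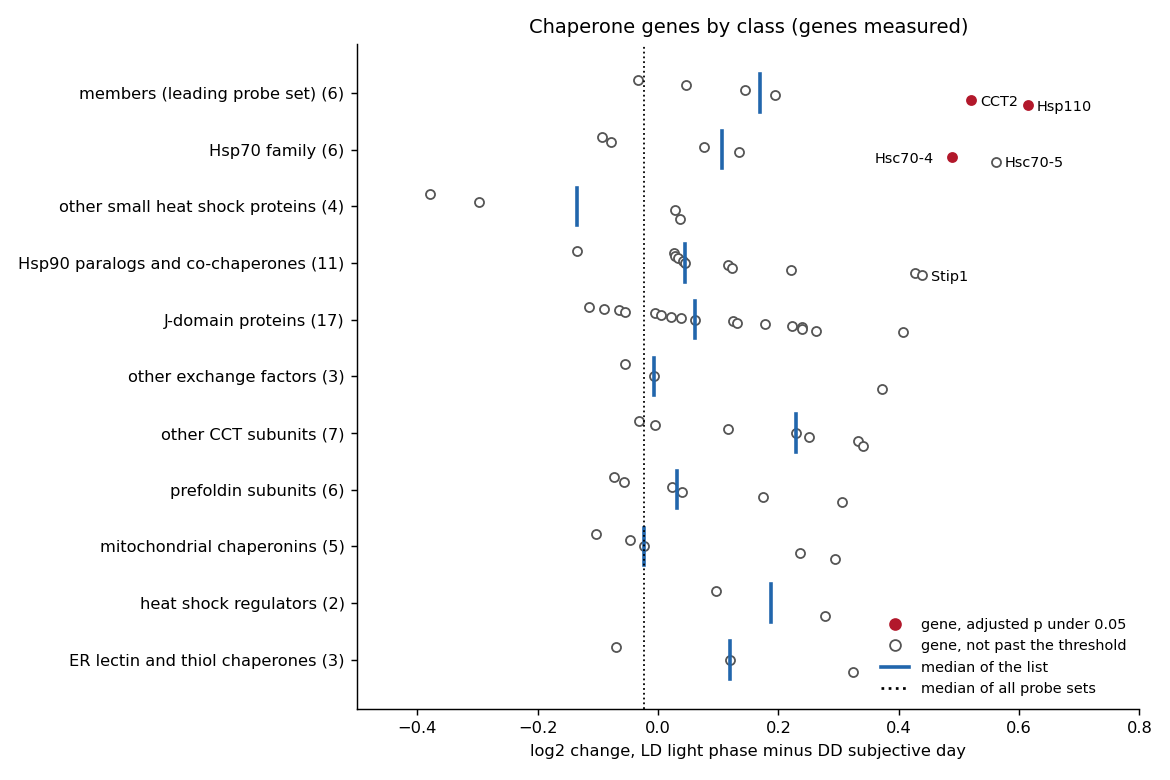
Log2 change, LD light phase minus DD subjective day (horizontal axis), of each measured chaperone gene, 1 row per class with the number of genes in brackets, the class median as a blue bar and the median of all probe sets dotted. Hsp110, CCT2 and Hsc70-4 are the 3 genes with filled points (adjusted p under 0.05), and the other small heat shock genes lie at or below 0.04.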

How the data were processed

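Total RNA of y w; tim01 heads was hybridised to 12 arrays. The deposited log2 values per probe set were made by the authors with RMA, per the submitters' processing notes; the sources used here give neither its version nor a genome build, so no positions or sequences are printed. RMA brings arrays to one distribution, which hides a change of all transcripts and compresses dim ones. No counts are in the files, and precision is limited by how few arrays there are. The title's hour set each array's group. No label says that arrays came from separate cultures of flies, so p-values measure only the spread between these arrays. The 44 control probe sets were left out and 13966 tested in R 4.3.3 by limma 3.58.1 with lmFit and eBayes (intensity trend), Benjamini-Hochberg adjusted over all, threshold 0.05. A model of 4 group means gave 7 comparisons, and a mean, cosine and sine of 24 h per day gave the rhythms. The steps were tested on simulated data. The platform annotation assigned a single symbol to 12443 probe sets, while 327 had several and 1196 had none, and 12394 were matched to the RefSeq gene table by Entrez number. Gene names, chaperone classes and markers were chosen with earlier results of these data known. Named were all member probe sets, every listed chaperone gene past the threshold, the 3 others with the smallest p in each comparison, Hsp68, Hsc70-3, Hsc70-4, Hsf and the CCT subunits where their class passed, and the 3 most similar genes. Other settings are given at the end. Any pair of arrays shared at most 56 identical values, so none was a copy of another.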

Additional observations from a re-analysis of the deposited data

How the results depend on the processing

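Counts of members called (by leading probe set) changed in 3 comparisons. For the LD light phase against the DD subjective day there were 2; 1 remained without the intensity trend and 1 with a filter at the median of all values, which leaves Hsp110 untested, and 0 with only the compared arrays, quantile normalization, the eIF-4a covariate, or without ZT2, ZT18 and CT2; leaving out 1 array gave 0 to 2. For light against all darkness there was 1; robust moderation and array weights gave 2, the eIF-4a covariate and leaving out ZT2, ZT18 and CT2 gave 0, and leaving out 1 array 0 to 2. For LD against DD over all hours there were 0; robust moderation, array weights, the filter, quantile normalization and the gut and male tract covariate gave 1 each, and leaving out 1 array 0 to 2. With clock hour as a replicate block the last count was 2, Hsp110 (adjusted p = 0.0278) and CCT2 (0.00378), and stv (second) was called too (0.00343); no other member count changed under the block. LD and DD arrays of the same hour deviated together with correlations of 0.03 to 0.45, over 0.1 in 4 of 6 hours, and 6 of 6 matched their own hour best. The titles give the hour of each array, but no label says that arrays of an hour share flies or a batch. The main tests therefore did not use the block and leave the spread between hours in the error. The member counts of the remaining comparisons were 0 under every setting run. The cause of these changes was not tested, except where fewer arrays or probe sets entered.

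Over all probe sets, calls for the LD light phase against the DD subjective day numbered 26, between 0 (only the compared arrays) and 142 (block), and 1 to 168 leaving out 1 array. For light against darkness they numbered 103 (43 with eIF-4a, 264 with array weights, 5 to 192), for LD against DD 3 (0 with eIF-4a, 118 with the block, 0 to 95), for light against dark in LD 18 (1 with only the compared arrays, 46 with the gut covariate, 2 to 54), for DD day against night 9 (4 with robust moderation, 18 with only the compared arrays, 0 to 18), for the LD rhythm 15 (6 with only the compared arrays, 38 with array weights, 1 to 22), and for the others 0 or 1, with 6 at most. Other chaperone genes called ranged from 0 to 3 (1 as reported) in the LD light phase against the DD subjective day, from 0 to 9 (3) in light against darkness and from 0 to 3 (0) in LD against DD. Of 1542 single log2 changes recomputed, 0 called values reversed, 72 lost their call and 58 gained one; 48 uncalled values near 0 changed sign.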

Other observations

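Some chaperone genes outside the members differed in the other direction or in the same direction on both days, with 0 of those named in this paragraph past the threshold. The small heat shock gene CG7409 read 6.90, 6.84 and 7.08 in the LD light phase, against 7.47, 7.25 and 7.33 in the LD dark phase, without overlap (-0.41 ± 0.15, adjusted p = 0.585), and averaged 7.24 ± 0.31 in the DD subjective day and 7.62 ± 0.32 in the DD subjective night (SD, n = 3 each; -0.38, adjusted p = 0.770). Against all darkness it was -0.46 ± 0.12 (adjusted p = 0.0929). The ER Hsp70 gene Hsc70-3, read by a probe set whose name marks possible cross-hybridisation within a family, was higher by day in LD (7.45 ± 0.10 in the light phase and 7.23 ± 0.09 in the dark phase; 0.22, adjusted p = 0.633) and in DD (7.38 ± 0.12 by subjective day and 7.15 ± 0.08 by subjective night; 0.23, adjusted p = 0.770), without overlap in either. Of all probe sets, 5.62% were higher by day in LD and 4.82% lower by day in DD without overlap. The shares lower by day in LD, as CG7409 was, and higher by day in DD are not given here.

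The J-domain gene jdp was lower in the LD dark phase than in the DD subjective night at 3 of 3 hours, as DnaJ-1 was, with 5.39, 5.53 and 5.69 in the LD dark phase, against 5.83, 5.80 and 6.09 in the DD subjective night (-0.37 ± 0.10, adjusted p = 0.998). Of the 17 J-domain genes measured, 10 were lower and 7 higher in that comparison, where 47.7% of all probe sets were higher. The 11 Hsp90 paralogs and co-chaperones were all higher in the light phase than in the dark phase of LD, by 0.01 to 0.42, with CG1416 the largest (5.06 ± 0.09 in light and 4.64 ± 0.27 in the dark phase; adjusted p = 0.346) and 0 past the threshold, where 47.2% of all probe sets were higher. In DD 5 of these 11 were higher by day and 6 lower, and Dpit47 was the largest at 0.23 (adjusted p = 0.770). Next by p in LD were Hsc70-4 (0.30, adjusted p = 0.357) and CCT5 (0.28, 0.463). Over all hours Hsc70-5 was higher in LD than in DD at 6 of 6 hours (0.41 ± 0.08, adjusted p = 0.0713), and Hsc70-4 (0.27, 0.0999) and Stip1 (0.30, 0.114) at 5 of 6. The smallest p for the difference between the LD and DD day and night contrasts belonged to Hsc70-4 (0.43 ± 0.12, adjusted p = 0.837), Tpr2 (0.39 ± 0.11, 0.882) and jdp (0.37 ± 0.13, 0.935), the last pair being J-domain genes. In the dark hours mgr, a prefoldin subunit gene, differed by -0.25 and Hsc70-5 by 0.26 in the LD dark phase over the DD subjective night (adjusted p = 0.998 each).

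Members measured by 1 dim or 1 discordant probe set limit what can be read from this series: Hsp110 and Hsp27 lie below the median of all values, the paired probe sets of stv and CCT2 differ, and Hsp83 and Hsp23 were not analysed here. Each time point is 1 array, and 16 sets of member values, 1 per probe set and day, gave 0 outliers in Dixon's test. The 6 values of a set are different hours, so this test cannot show whether a single array is sound.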
